A study of Drosophila melanogaster with 6 samples.

Results

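The expression of small heat shock proteins and their co-chaperones was measured in whole adult flies of the Drosophila melanogaster strains Canton-S and D18. A list of 10 genes was examined, namely Hsp22, Hsp23, Hsp26, Hsp27, Hsp67Ba, Hsp67Bc, Hsp68, Hsp83, DnaJ-1 and stv. A probe set was taken where the annotation of the array named only one of these members under its current symbol or a synonym. This rule found 7 of the 18769 probe sets tested, for 6 of the 10 genes. Hsp26, Hsp27, Hsp68, DnaJ-1 and stv each had 1 probe set of their own. The 2 probe sets of Hsp22 also name CG4456, a gene once called Hsp67Bb that overlaps Hsp22 on chromosome 3L, so their values belong to the pair Hsp22 and CG4456. No probe set analysed here names Hsp23, Hsp67Ba, Hsp67Bc or Hsp83, so these 4 genes have no value below.

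Canton-S and D18 are wild-type laboratory strains, the first of North American and the second of Russian origin, and both are described as highly inbred. Each was sampled in 3 biological repeats of pooled flies kept at 25 °C. The sample labels give an age of 3 days, while the methods of the study give 2–3 days and flies of both sexes. Biotinylated cRNA from the total RNA of each repeat was hybridized to 1 Affymetrix array. All values below are on the log2 scale of the robust multi-array average (RMA), the background-corrected, normalized and summarised intensity of a probe set, and a difference of 1 on this scale is a 2-fold change.

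Small heat shock proteins are ATP-independent chaperones that hold unfolding proteins until ATP-driven chaperones refold them. In the fly, Hsp22 resides in mitochondria, Hsp27 mainly in the nucleus and Hsp26 and Hsp23 in the cytosol. Their genes answer to heat, cold and oxidative stress through the heat shock factor Hsf, and several are also expressed without stress in the germ line. Hsp68 is a stress-inducible protein of the Hsp70 family and Hsp83 is the cytosolic Hsp90. DnaJ-1 is an Hsp40 co-chaperone that delivers clients to Hsp70 and activates its ATPase. The BAG-domain protein stv (starvin) is a nucleotide exchange factor of Hsp70 chaperones and acts with Hsp67Bc in selective autophagy.

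The members from Hsp67Bc to Hsp27 lie together at cytological position 67B. In the Release 6 assembly the 6 genes Hsp67Bc, Hsp22, Hsp26, Hsp67Ba, Hsp23 and Hsp27 span 14.2 kb of chromosome 3L, from 9371511 to 9385694. Hsp26 (CG4183) occupies 9376418 to 9377427, Hsp27 (CG4466) 9384063 to 9385694 and Hsp22 (CG4460) 9372931 to 9374964. DnaJ-1 (CG10578, 5750029 to 5752189) and stv (CG32130, 13477541 to 13483515) lie elsewhere on chromosome 3L, and Hsp68 (CG5436) on chromosome 3R from 24055080 to 24057310.

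The 6 arrays were of 2 kinds. On Canton-S replicate 3 and D18 replicate 2 the medians of 13 testis genes were 10.52 and 10.80, and those of 11 genes of the male accessory gland 11.38 and 10.76. On the other 4 arrays these medians were between 2.28 and 2.76. The median of 17 genes of ovary and eggshell lay at 3.97 and 3.56 on these arrays, in the same order, and between 11.30 and 12.88 elsewhere. No array was high in both male and female organ genes, although the methods describe flies of both sexes. The pair is called testis-high below and the other 4 arrays testis-low, and each strain holds 1 testis-high and 2 testis-low arrays. The kinds are not groups of the sample labels, so differences between them within a strain are described without a test. Only the interaction of strain and kind, added after the values were seen, was fitted. With 1 testis-high array per strain its spread comes from the testis-low arrays alone. Counts of probe sets by this interaction therefore carry no conclusion, and its size is given without a p-value. Its SE assumes that the testis-high arrays vary like the others. The medians of the arrays were between 4.92 and 5.58, their lower quartiles between 2.96 and 3.09, and their small number limits the precision. In such bulk samples fewer cells of a type and less RNA per cell cannot be told apart.

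Hsp26 was the only member that passed the thresholds of the study between the strains, and it was 19.0-fold higher in Canton-S. Its level was 11.36, 11.60 and 9.48 on Canton-S replicates 1 to 3 and 6.48, 7.90 and 5.34 on D18 replicates 1 to 3. All 3 Canton-S arrays were above all 3 D18 arrays, and within each strain the testis-high array was the one closest to the other strain. The Canton-S mean was 10.82 ± 1.16 and the D18 mean 6.57 ± 1.28 (SD, n = 3). The difference of 4.25 ± 0.87 (SE) on the log2 scale was the 15th largest in size among the 18769 probe sets. The thresholds of the study are a fold above 2 and a p below 0.01 without adjustment, and Hsp26 had an unadjusted p of 0.00336 in limma. After correction over all probe sets it did not pass (adjusted p = 0.497 from limma). The two-sided exact permutation test over the 6 arrays gave p = 0.1, the smallest that 3 against 3 arrays allow. Of the 7 member probe sets 1 passed these thresholds, against 1.27% of all probe sets. At an adjusted p under 0.05 limma called 0 of 7 (1 of 7 at 0.05 before adjustment), against 0.0373% of all. The groups did not overlap for 1 of 7, against 8.01% of all.

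**Figure D1:**
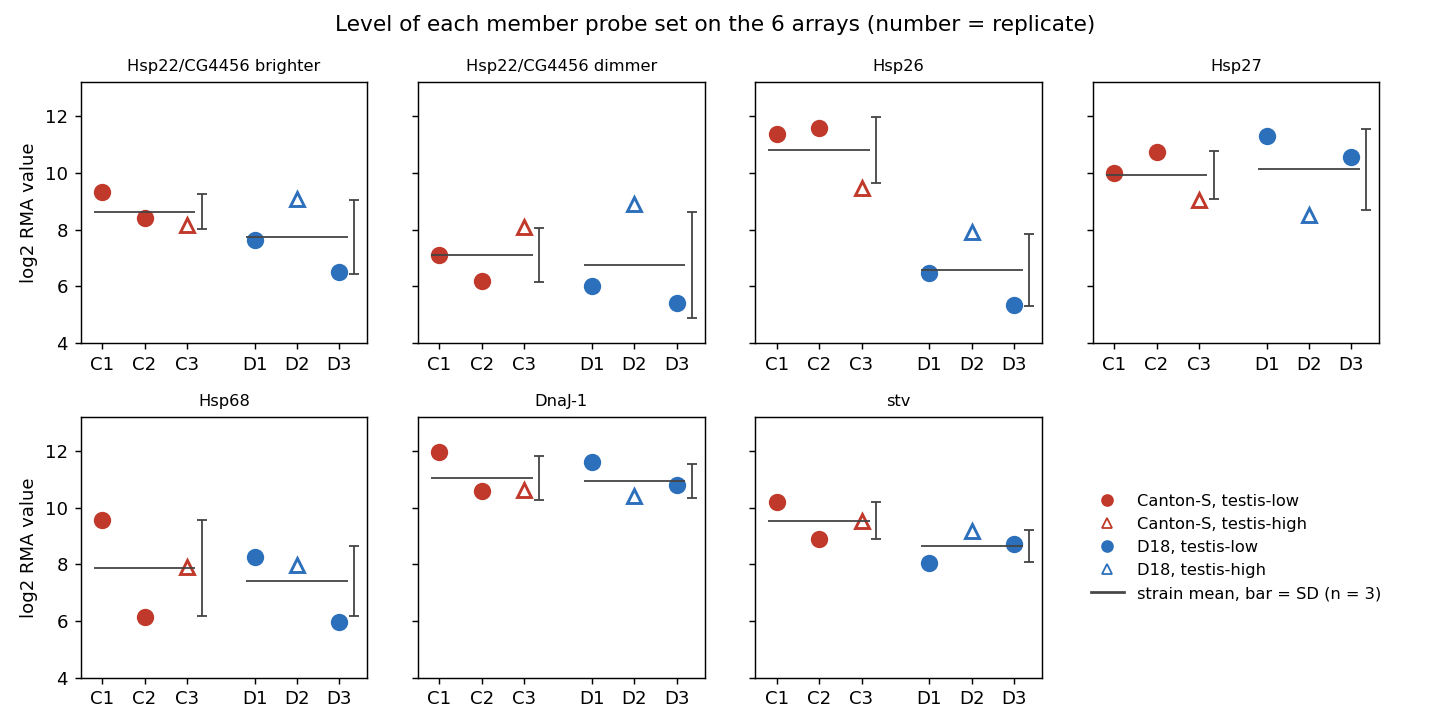
Level of the 7 member probe sets (log2 RMA value) on the 3 Canton-S (C1 to C3, red) and 3 D18 (D1 to D3, blue) arrays, with open triangles for the testis-high arrays, lines for strain means and bars for the SD (n = 3). Only in the panel of Hsp26 do the strains not overlap, with Canton-S from 9.48 to 11.60 and D18 from 5.34 to 7.90.

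The strain difference of Hsp26 was wider on the testis-low arrays. On these 4 arrays Canton-S stood at 11.36 and 11.60 and D18 at 6.48 and 5.34, a 47.7-fold difference. The log2 difference of 5.58 ± 0.40 (SE, 95% interval 4.55 to 6.61) was the 5th largest in size of all probe sets and reached an adjusted p = 0.0227 from limma. Here 1 of 7 member probe sets passed the thresholds of the study, against 2.74% of all. At an adjusted p under 0.05 it was 1 of 7, against 0.309% of all. With all 6 arrays and a block for the kind of array, the adjusted p of Hsp26 was 0.126 from limma. On the testis-high pair the levels were 9.48 and 7.90, a 3.00-fold difference between 1 array and 1 array with no replicate. Compared with the testis-low arrays of its strain, the testis-high array was 4.01-fold lower in Canton-S and 3.97-fold higher in D18. The interaction of strain and kind was -3.99 ± 0.70 (SE). It is the strain difference of the testis-high pair minus that of the testis-low arrays. On the testis-low arrays each marker gene was also compared between the strains (Canton-S minus D18). The median of these per-gene differences was -0.72 for ovary and eggshell, 0.67 for muscle and 0.63 for midgut genes. It was 0.49 for photoreceptor, 0.41 for neuron and 0.26 for fat body genes. The array medians of the fat body list were 10.42 and 7.98 in Canton-S and 9.55 and 4.75 in D18. Those of the ovary and eggshell list were 11.30 and 11.85 in Canton-S and 12.88 and 12.48 in D18. The part of these markers in the difference of Hsp26 was not tested.

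**Figure D2:**
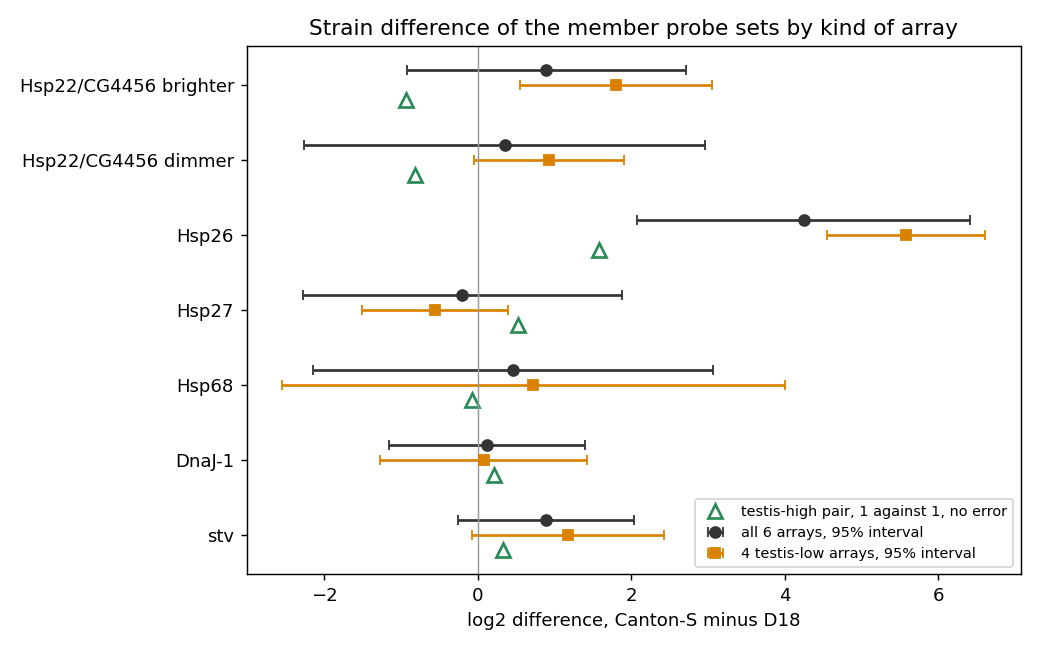
Strain difference (log2, Canton-S minus D18) of each member probe set in all 6 arrays (black, 95% interval), in the 4 testis-low arrays (orange, 95% interval) and between the 2 testis-high arrays (green, 1 against 1, no error). Hsp26 lies to the right of 0 in each comparison, at 4.25, 5.58 and 1.58, and the Hsp22 probe sets change side on the testis-high pair.

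The call of Hsp26 was lost with some arrays left out. With each array left out in turn its log2 difference stayed between 3.63 and 4.91, with an unadjusted p of 0.00208 to 0.015 in limma. It did not pass the thresholds without Canton-S replicate 1 (difference 3.97), Canton-S replicate 2 (3.85), D18 replicate 1 (4.20) or D18 replicate 3 (3.63), where the unadjusted p ranged from 0.0101 to 0.015.

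The genes around Hsp26 had smaller differences. Within 50 kb on either side 23 other probe sets were measured, and 0 of them passed the thresholds of the study with all arrays or on the testis-low arrays in limma, where the shares of all probe sets are 1.27% and 2.74% and a list of this size would hold few calls or none. Their log2 differences were between -0.57 and 0.89. CG4461, a gene of the same small heat shock protein family that lies between Hsp22 and Hsp26, had levels of 9.78, 8.63 and 10.29 in Canton-S and 8.74, 9.19 and 8.94 in D18, which overlapped between the strains. Its log2 difference was 0.61 ± 0.46 (SE, adjusted p = 1.0 from limma). Hsp26 itself is reported by 1 probe set only.

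**Figure D3:**
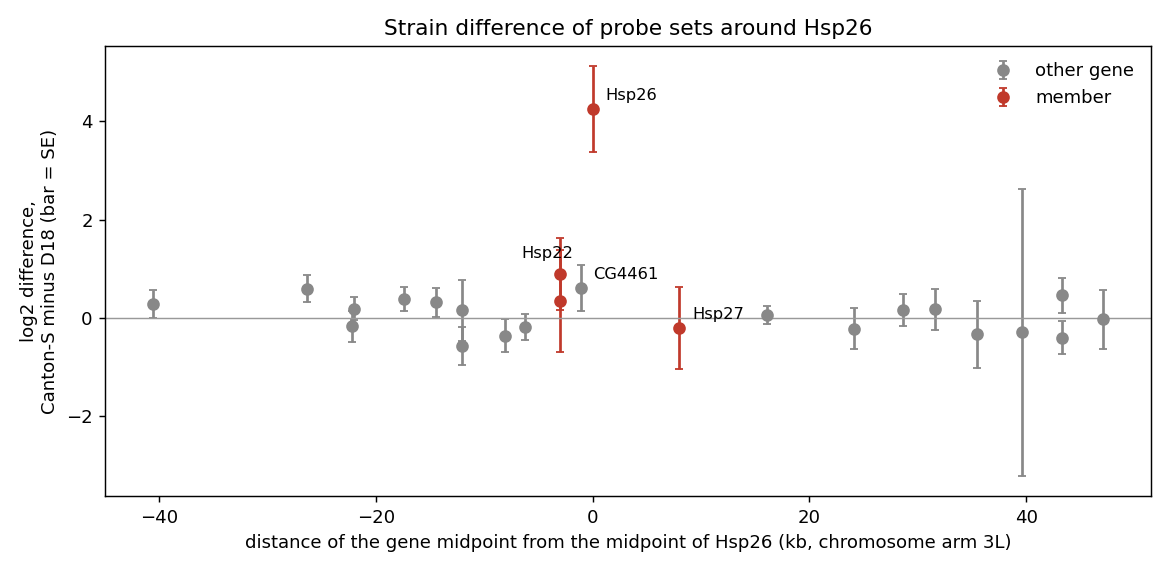
Strain difference (log2, Canton-S minus D18, bar = SE) of the 24 probe sets within 50 kb of Hsp26, by the distance of the midpoint of their gene from that of Hsp26. Hsp26 stands at 4.25 and the other probe sets between -0.57 and 0.89.

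Both probe sets shared by Hsp22 and CG4456 were higher in D18 than in Canton-S on the testis-high arrays and lower in D18 on the testis-low arrays. The brighter of them had levels of 9.33, 8.40 and 8.16 on Canton-S replicates 1 to 3 and 7.63, 9.09 and 6.49 on D18 replicates 1 to 3. D18 replicate 2, the testis-high array, was above Canton-S replicates 2 and 3, so the strains overlapped. On the testis-low arrays Canton-S was 3.49-fold higher, with a log2 difference of 1.80 ± 0.49 (SE, adjusted p = 0.329 from limma), and between the testis-high arrays D18 was 1.91-fold higher. Over all arrays the log2 difference was 0.89 with a 95% interval of -0.92 to 2.71 and did not pass.

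The dimmer probe set had levels of 7.09, 6.17 and 8.08 in Canton-S and 6.0, 8.90 and 5.40 in D18. On it the testis-high array was the highest of its strain, 2.73-fold above the others in Canton-S and 9.19-fold in D18. Its strain difference was 0.35 with a 95% interval of -2.26 to 2.96 over all arrays and 0.93 with an interval of -0.05 to 1.91 on the testis-low arrays. The interaction of strain and kind was -2.74 ± 0.85 (SE) for the brighter and -1.75 ± 0.67 for the dimmer probe set. The counts below cannot show an excess among the members, because the interaction rests on 1 testis-high array per strain. It was also chosen after the values were seen, and the brighter and dimmer probe sets report the same gene pair. With Hsp26, 3 of 7 member probe sets were at an unadjusted p under 0.05 for this interaction, against 5.37% of all probe sets. After adjustment 0 of 7 were called in limma, against 0.0213% of all.

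Hsp27, the nuclear small heat shock protein, did not follow Hsp26. Its levels were 10.0, 10.74 and 9.06 on Canton-S replicates 1 to 3 and 11.31, 8.53 and 10.55 on D18 replicates 1 to 3. Within each strain the testis-high array was the lowest, 2.48-fold below the others in Canton-S and 5.26-fold in D18. The strain difference was -0.20 with a 95% interval of -2.27 to 1.88, and -0.56 with an interval of -1.51 to 0.39 on the testis-low arrays, where the D18 levels of 11.31 and 10.55 overlapped with 10.0 and 10.74 of Canton-S. Of the 7 member probe sets, Hsp27 was the only one more than 2-fold lower on the testis-high array in both strains, against 13.7% of all probe sets. The dimmer Hsp22 and CG4456 probe set was the only one more than 2-fold higher there in both strains, against 11.4% of all.

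Among the Hsp70 system members, stv, DnaJ-1 and Hsp68 did not pass between the strains. The levels of stv were 10.21, 8.90 and 9.52 in Canton-S and 8.04, 9.19 and 8.71 in D18. D18 replicate 2 lay above Canton-S replicate 2, so the strains overlapped. Its log2 difference was 0.89 ± 0.46 (SE, 95% interval -0.25 to 2.04, adjusted p = 1.0 from limma), and on the testis-low arrays 1.18 with an interval of -0.08 to 2.43.

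DnaJ-1 had levels of 11.96, 10.59 and 10.64 in Canton-S and 11.61, 10.43 and 10.79 in D18. In both strains replicate 1 was the highest array. The log2 difference between the strains was 0.12, with a 95% interval of -1.16 to 1.40, and it turned to -0.02 with quantile normalization and to -0.04 with the arrays shifted to a common median. Hsp68 had levels of 9.55, 6.15 and 7.90 in Canton-S and 8.27, 7.97 and 5.98 in D18. Replicates 1 and 2 of Canton-S alone were 3.40 apart. The strain difference of 0.46 had a 95% interval of -2.15 to 3.07, which holds several-fold differences in either direction.

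The members varied more between arrays, beyond strain and kind, than most probe sets. With strain and kind of array as terms, the residual SD of the 7 member probe sets was between 0.563 for Hsp27 and 1.69 for Hsp68, with a median of 0.736, against a median of 0.225 over all probe sets. All 7 lay above 0.525, the level that 10% of all probe sets exceeded. Hsp68 stood at the 99.5th percentile and Hsp26 at the 99.2nd, and for Hsp26 and both Hsp22 and CG4456 probe sets this SD also holds the unequal strain difference of the kinds. With strain as the only term the members stood between the 64.4th and the 87.5th percentile. These percentiles are over probe sets of all levels, dim ones included, and no comparison at a matched level was made.

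**Figure D4:**
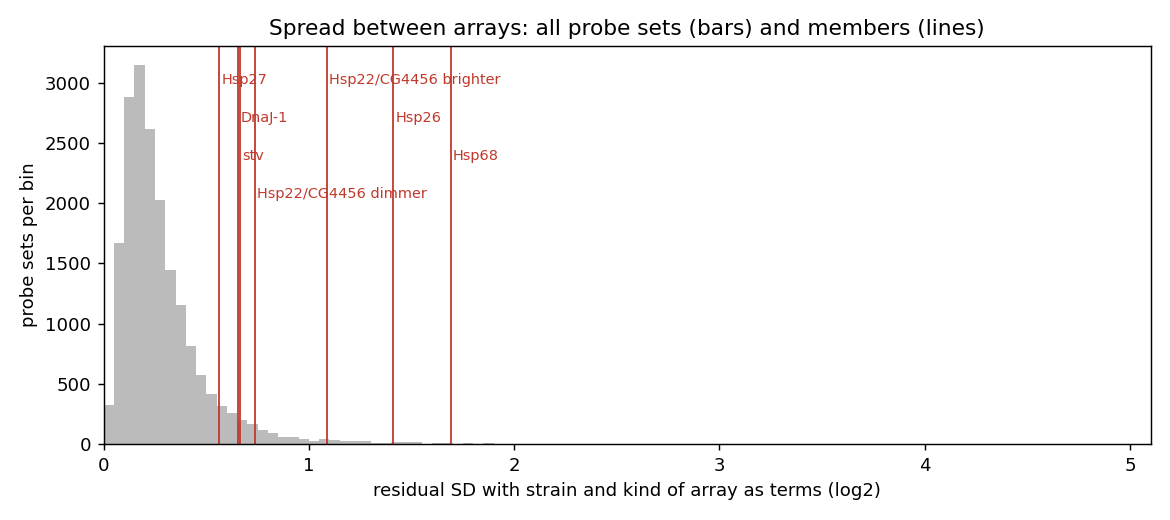
Residual SD (log2) with strain and kind of array as terms for all 18769 probe sets (grey bars, probe sets per bin of 0.05) and for the 7 member probe sets (red lines). The members lie between 0.563 and 1.69, to the right of the median of all probe sets at 0.225.

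Part of this spread ran with the replicate number. On the testis-low arrays replicate 1 was set against the other array of its strain, which is replicate 2 in Canton-S and replicate 3 in D18, a comparison chosen after the values were seen. Hsp68 was 10.6-fold higher on replicate 1 in Canton-S and 4.88-fold in D18. DnaJ-1 was 2.60-fold and 1.76-fold higher, and the brighter Hsp22 and CG4456 probe set 1.90-fold and 2.21-fold. With the dimmer one, at 1.89-fold and 1.51-fold, 4 of 7 member probe sets were higher on replicate 1 in both strains, against 23.5% of all probe sets. Hsp68 alone was more than 2-fold higher in both, against 0.762% of all. Hsp26 and Hsp27 were higher on replicate 1 in D18 only, and stv in Canton-S only. Both Hsp22 and CG4456 probe sets were lower on D18 replicate 1 (7.63 and 6.0) than on the testis-high D18 replicate 2 (9.09 and 8.90).

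The Hsp70 genes, the classic heat-inducible chaperones of the fly, were also higher on replicate 1 than on the other testis-low arrays. Of 4 probe sets that name only Hsp70 copies, 3 were at 10.12 to 11.83 on the replicate 1 arrays of both strains and at 4.14 to 7.93 on the other 4 arrays. The probe set of Hsp70Aa and Hsp70Ab stood at 11.54, 7.93 and 5.54 on Canton-S replicates 1 to 3 and at 11.20, 5.27 and 6.02 on D18 replicates 1 to 3. Replicate 1 was thus separated from all other arrays in each strain, and on the testis-low arrays the excess of the 3 probe sets was 12.2-fold to 22.3-fold in Canton-S and 28.9-fold to 36.4-fold in D18. The fourth probe set was dim on every array, at 1.59 to 2.78. Near-identical copies cannot be told apart by these probe sets. Their strain differences were between -0.47 and 0.84, with unadjusted p of 0.71 to 0.98 in limma. The methods state that RNA of both strains was extracted together in each repeat, but the labels do not tie the replicate numbers to these extractions. The medians of the fat body and muscle markers were also higher on replicate 1. The median of 5 fat body genes was 10.42 on replicate 1 and 7.98 on the other testis-low array in Canton-S. In D18 it was 9.55 and 4.75. That of 8 muscle genes was 11.72 against 9.25 in Canton-S and 10.30 against 9.15 in D18. Of the fat body genes 3 of 5 were higher on replicate 1 in each strain. Of the muscle genes 8 of 8 were higher in Canton-S and 6 of 8 in D18. The neuron, photoreceptor, midgut, and ovary and eggshell lists did not rise in both strains. The median per-gene difference of replicate 1 was 0.28 in Canton-S and -0.65 in D18 for neuron genes. It was 0.17 and -0.53 for photoreceptor, 0.16 and -0.08 for midgut, and -0.45 and 0.44 for ovary and eggshell genes. The part of these markers in the pattern was not tested.

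**Figure D5:**
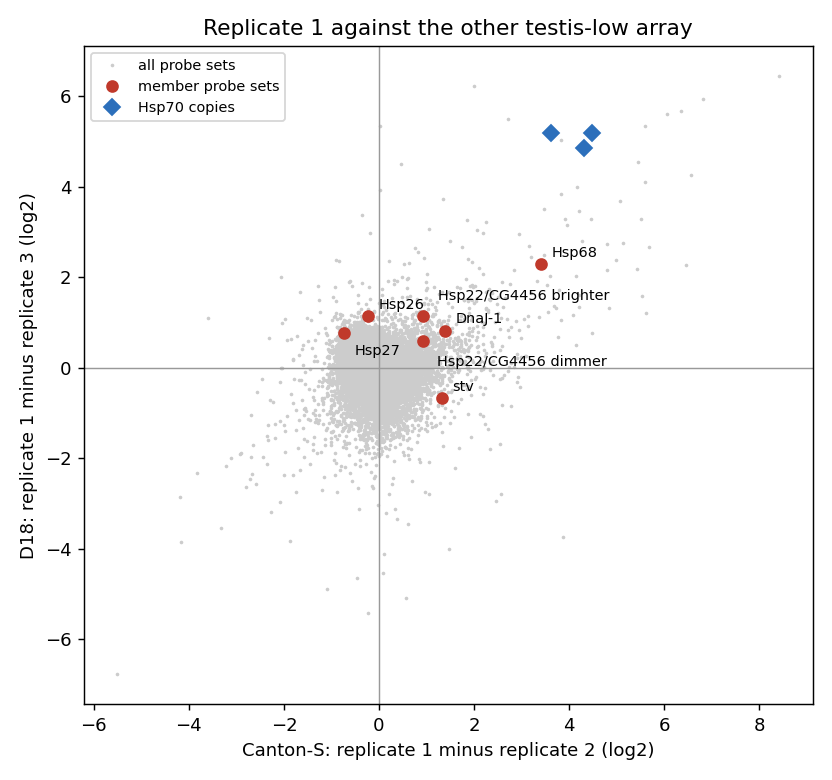
Log2 difference of replicate 1 from the other testis-low array in Canton-S (horizontal, against replicate 2) and D18 (vertical, against replicate 3) for all probe sets (grey), the 7 member probe sets (red) and 3 probe sets of Hsp70 copies (blue). Hsp68 at 3.40 and 2.29 and the Hsp70 copies lie to the upper right, while Hsp26 at -0.24 and 1.14 does not.

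Other chaperone genes were read beside the members. Of 76 other genes of small heat shock proteins, Hsp70, Hsp90, DnaJ and chaperonin families, their co-chaperones and heat shock regulators, 60 had a probe set of their own. Of these 0 passed the thresholds of the study; limma gave 0 of them a p below 0.05 even before adjustment, and 0 passed without moderation of the variance. The share of all probe sets past these thresholds is 1.27%, so that few calls or none would be met in a list of this size. Their median log2 difference was -0.11, against -0.03 for the 11982 genes measured by their own probe sets, and for the 5 members with probe sets of their own it was 0.46. The 4 other small heat shock proteins had a median of 0.32, with l(2)efl at 0.60 and CG7409 at 0.05, and CG13133 at -0.13. Hsf, the transcription factor that drives the stress response of the members, had levels of 9.32, 9.90 and 8.72 in Canton-S and 10.29, 8.65 and 10.08 in D18, which overlapped, and a log2 difference of -0.36 ± 0.55 (SE).

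The constitutive chaperone Hsc70-4 was at 12.81, 13.05 and 12.63 in Canton-S and 12.77, 12.46 and 12.98 in D18, a log2 difference of 0.09. Its residual SD with strain and kind as terms was at the 21.6th percentile of all probe sets. Of the 60 genes, 4 lay above the level that 10% of all probe sets exceeded, which is no excess over that share. They were CG4461, CG7409, Hsc70-1 (97.1st percentile) and Hsc70-2, and the reference gene Gapdh1 (90.1st) lay above it too. The 3 brighter probe sets that name only Hsp70 copies stood at the 99.9th percentile. A high residual SD was thus not confined to the members. On the testis-low arrays 1 of the 60 genes, Hsc70-2, passed the thresholds, against 2.74% of all probe sets. There it stood at 3.59 and 3.55 in Canton-S and 5.53 and 5.83 in D18, 4.31-fold higher in D18 (adjusted p = 0.0446 from limma). These testis-low levels of Canton-S lie not far above the lower quartiles of the arrays. On the testis-high arrays Hsc70-2 stood at 9.67 in Canton-S and 9.99 in D18, a log2 difference of -0.33 between 1 array and 1 array. Of the 60 genes, 10 were more than 2-fold higher on the testis-high array in both strains and 4 lower, against 11.4% and 13.7% of all probe sets, and the former include Hsp60B, Hsp60C and Hsp60D. The genes that the study used as references for qRT-PCR differed by 0.10 for Ras64B, -0.12 for Gapdh1 and 0.16 for RpL32 on the log2 scale.

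The pattern of Hsp26 over the 6 arrays was most like that of CG3841, CG31097, CG17475, CG42822 and Acp95EF, with Pearson's r of 0.989, 0.985, 0.978, 0.976 and 0.975 among 11981 other genes. These correlations describe 6 arrays that differ by strain and kind and have no test. Of these genes CG3841 had the levels 7.64, 7.53 and 7.07 in Canton-S and 6.14, 6.30 and 5.70 in D18, and the levels of Acp95EF, a gene of the accessory gland list, were only between 4.01 and 4.29 on all arrays. The log2 difference between the strains was 1.37 for CG3841 and 1.58 for CG42822, against 4.25 for Hsp26.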

How the data were processed

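Total RNA (250 ng per array) of 3 Canton-S and 3 D18 samples was hybridized to GeneChip arrays. The authors ran RMA at default settings in Transcriptome Analysis Console, and their log2 values, from 0.98 to 14.07, were used unchanged. Probe sets were named through the platform annotation with current RefSeq symbols and Release 6 positions. After removal of 183 controls, 18769 probe sets were left, of which 13647 name 1 gene, 402 several and 4720 none.

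Strains were compared in limma 3.58.1 (R 4.3.3) with strain as the only factor, at p under 0.01 and more than 2-fold or at a Benjamini-Hochberg adjusted p under 0.05 over all probe sets. The fit was tested on simulated data. The members, lists and tests were chosen with earlier results of these data known. In lists a gene was given by its brightest probe set. The genes named were all members, up to 4 called genes per list, the reference genes and the 5 genes most like each called member. The other list genes, CG4461 and the shared Hsp70 probe sets were named after their values were seen. Over the 6 arrays the list medians were 7.75 to 9.82 for photoreceptor, 11.31 to 12.77 for midgut and 5.87 to 8.18 for neuron genes.

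The labels do not say what a replicate number shares between the strains, so the arrays were not paired. Alternatives were the replicate number as a block, a block for the kind of array, samples left out, quantile or median scaling, removal of the dimmest 40% of probe sets, no moderation and an intensity trend. The interaction of strain and kind, the values of the testis-high pair alone and a median without the shared probe sets were added after the data were examined. Plots were made in Python 3.11.15 with matplotlib 3.10.9.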

Additional observations from a re-analysis of the deposited data

How the results depend on the processing

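The count of all probe sets past the thresholds of the study was 239 (203 higher in Canton-S, 84.9%). It was 92 with the replicate block, 447 with a block for the kind of array, 514 without the testis-high pair, 121 with arrays shifted to a common median (88 higher in Canton-S, 72.7%), 157 without moderation, and 130 to 297 with 1 array left out. At an adjusted p under 0.05 the 7 probe sets became 0 with the replicate block (373 at 0.05 before adjustment in limma), 95 with the kind block, 58 without the testis-high pair, 2 with quantile normalization, 1 with a common median, 11 with the filter, 3 without moderation, 2 with the intensity trend, and 0 with any 1 array left out (499 to 1286 at 0.05 before adjustment). Over all probe sets the median difference was -0.05, and -0.22 after the shift to a common median.

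Of the members, 1 probe set (Hsp26) passed, and 0 to 1 did with 1 array left out and 0 without moderation, where its unadjusted p was 0.0132. Over 14 alternatives with a test, the unadjusted p of Hsp26 ranged from 2.78e-05 to 0.015 in limma and the adjusted one from 0.0227 to 1.0. With the replicate block, Hsp26 passed at an unadjusted p of 0.000599, and no call of a member changed. Deviations from the strain means correlated at 0.777, -0.93 and -0.861 between same-numbered arrays 1, 2 and 3. Arrays 1 are testis-low in both strains, while numbers 2 and 3 each set a testis-high against a testis-low array. The kinds of array enter these values, which therefore cannot show what a number shares between the strains. One gene of the other chaperone lists passed with the kind block and 1 without the testis-high pair, against 0 otherwise. The median difference over the 6 members, each by its brightest probe set, was 0.68. It was 0.46 without the probe sets shared with CG4456, and 0.16 to 1.11 with 1 array left out and the shared ones kept.

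The sign of several uncalled members depended on the arrays. With 1 array left out the differences were -0.99 to 0.39 for Hsp27, -0.38 to 1.32 for Hsp68, -0.33 to 0.45 for DnaJ-1 and -0.33 to 1.42 for the dimmer Hsp22 and CG4456 probe set. DnaJ-1 turned to -0.02 with quantile normalization and -0.04 with a common median. On the testis-high pair alone the values were -0.93 and -0.82 for the brighter and dimmer Hsp22 and CG4456 probe sets, 0.53 for Hsp27 and -0.07 for Hsp68. Apart from the fewer arrays or the changed variance that these settings involve, the cause was not tested.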
